A study of Mus musculus with 4 samples.

Results

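The cells described here are Mrc1-high MHC-II-high macrophages of the young mouse salivary gland. They were chosen by raw unique molecular identifiers (UMIs, each marking 1 captured transcript) in single barcodes. Barcodes were kept from 500 UMIs and 300 genes upwards, with mitochondrial UMIs up to 10%. A member had at least 20 UMIs of C1qa, C1qb and C1qc together, at least 10 of Mrc1 and at least 15 of H2-Aa. It had at most 1 UMI of Ccr2, fewer than 4 of Mki67 and Top2a together, and 0 of Cd3e, Cd3d and Cd3g. Of 37644 barcodes kept from 39395, 281 were members (0.746%). They were set beside 1395 Mrc1-high cells of the same gate with H2-Aa below 15, called MHC-II-low, and beside 1714 cells with C1q and H2-Aa as high as the members but Mrc1 below 10, called Mrc1-lower.

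Leukocytes, marked by CD45, came from digested salivary gland of mice aged 20 days. They were enriched with magnetic beads and then by flow sorting, and sequenced as droplet single-cell 3′ libraries. Mice of the label genotype C56BL/6 Csf2+/- were compared with C56BL/6 Csf2-/- mice. Csf2 encodes GM-CSF, so the comparison asks what changes in these macrophages when the growth factor is missing. Each genotype had 1 female and 1 male library, each pooled from 2 mice (n = 2 libraries per genotype). The controls lack 1 Csf2 allele themselves, and which part of the gene the deletion removes is not given in the sources used here. Csf2 had 2023 and 2029 UMIs in the kept barcodes of the Csf2+/- libraries and 103 and 127 in those of Csf2-/-, so reads of the gene were fewer but present; its level in members was 0 in all 4 libraries. Sex cannot be told apart from the replicate within a genotype. The libraries held 58, 62, 79 and 82 members. Values of the 4 libraries follow this order throughout, Csf2+/- before Csf2-/- and, within each genotype, female before male.

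Mrc1 encodes the mannose receptor CD206, an endocytic receptor of many resident tissue macrophages. MHC class II molecules, of which H2-Aa encodes an alpha chain, carry peptides to the surface for CD4 T cells. In many tissues, resident macrophages that take up debris beside blood vessels express Mrc1, Lyve1 and Folr2 with little MHC class II, and other resident macrophages carry much of it.

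The class II promoters are shown because the members were chosen on 1 gene of this family and its other genes were high with it. In such promoters a proximal X box and Y box are bound by the RFX complex and NF-Y, and the coactivator CIITA, encoded by Ciita, joins them. The stretches below lie before the start of the gene, 5′ to 3′ on the gene's strand, from RefSeq with build GRCm38.p6. Capitals mark matches of CTNGNAACT, an X box core, and GATTGG, the Y box core.
H2-Aa: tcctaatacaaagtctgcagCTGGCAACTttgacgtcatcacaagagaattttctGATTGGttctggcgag
H2-Eb1: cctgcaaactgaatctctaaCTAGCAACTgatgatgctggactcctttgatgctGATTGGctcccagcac
H2-DMb1: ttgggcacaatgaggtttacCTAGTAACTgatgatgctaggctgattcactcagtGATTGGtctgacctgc
They lie at chr17:34287857-34287927 on the minus strand, chr17:34305753-34305822 on the plus strand and chr17:34153074-34153144 on the plus strand. Between the X and the Y match lay 26, 25 and 26 bases.

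Both motifs were searched on both strands of windows from 250 bases before to 50 bases after the start, and the matches shown do not overlap. GATTGG was found in 16.1% and CTNGNAACT in 4.10% of 32544 promoters, and both in 0.688%. Of 18 genes on the MHC class II list, 14 had a promoter in the table. GATTGG was in at least 1 promoter of 11 of these genes and CTNGNAACT in those of 3. The letters of CTNGNAACT were chosen after these sequences had been read, so its matches are a description only.

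Members carried Folr2, Cbr2, Ccl24 and Pltp, markers listed for this set with earlier results of these data known. Members had 577.5 ± 82.4 CPM of Folr2, the folate receptor beta (CPM, counts per 1000000 of the summed UMIs; mean ± SD, n = 4 libraries here and in the comparisons of cell sets). Mrc1-lower cells had 12.1 ± 2.36 CPM. Cbr2, a carbonyl reductase, was at 356 ± 42.5 CPM in members and 14.6 ± 3.13 CPM in Mrc1-lower cells. Ccl24, an eosinophil-attracting chemokine, was at 172 ± 35.1 CPM against 4.05 ± 2.02 CPM. Pltp, which encodes phospholipid transfer protein, was at 465.5 ± 103 CPM against 24.1 ± 5.18 CPM. Each of these 4 markers was lower in members than in MHC-II-low cells in all 4 libraries, so members share them and are not the set where they peak.

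A UMI of Pltp was found in 86.5% (exact 95% interval 81.9 to 90.2) of members, of Cbr2 in 77.2% (71.9 to 82.0), of Folr2 in 73.3% (67.7 to 78.4) and of Ccl24 in 40.9% (35.1 to 46.9). In T cells, which should lack them, the shares were 4.07%, 2.05%, 1.99% and 1.01%, at a median of 9788 UMIs per cell against 11402 in members. With each cell thinned to 8000 UMIs, leaving out 44 of the members and 450 of the MHC-II-low cells, the members' shares were 79.3%, 70.0%, 68.4% and 33.3%. MHC-II-low cells then stood at 89.6%, 90.1%, 90.9% and 65.3%. These intervals cover counting error only.

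All 15 genes of a macrophage list were detected in members, with a summed level of 31745 to 40777 CPM per library against 589 to 968 CPM in T cells. Csf1r, the receptor for the main macrophage growth factor, was at 1188, 1184, 1120 and 1134 CPM. Lists of other myeloid cells were not at 0. The 12 monocyte list genes outside the gate summed to 441 to 680 CPM in members and 356 to 526 CPM in MHC-II-low cells. At least 5 UMIs of the list were held by 29.2% of members and 19.9% of MHC-II-low cells. In T cells the sum was higher, at 3024 to 3548 CPM, and 94.1% of them held at least 5 UMIs. The sum of these genes was thus not specific to monocytes. Of these genes, Vcan and Chil3 were at 0 in all 4 libraries of members, which allows up to 3 UMIs per library, and Ly6c2 was at 7.52 ± 8.24 CPM. The 10 genes of the type 2 dendritic cell list summed to 930 to 1076 CPM in members and 1138 to 1191 CPM in MHC-II-low cells, with the defining gene Flt3 at 5.71 ± 3.71 CPM. The 7 genes of the type 1 list summed to 251 to 465 CPM in members, above 168 to 216 CPM in MHC-II-low cells. Mrc1-lower macrophages had more, at 827 to 1000 CPM. Cadm1 of this list was at a mean of 196 CPM in members, 54.0 CPM in MHC-II-low and 824 CPM in Mrc1-lower cells. The part of such cells in the results was not tested.

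The limits that chose the members cut through a continuous range. Members had a median of 46 H2-Aa UMIs (quartiles 26 and 76, range 15 to 252), and 34 of them had 15 to 19. Just outside were 64 Mrc1-high cells with 10 to 14, and 788 of the MHC-II-low cells had 0. The members' median of Mrc1 was 21 UMIs, with 64 members at 10 to 14, against 30 in MHC-II-low cells. Among MHC-II-high cells below the Mrc1 limit, 105 had 5 to 9 Mrc1 UMIs and 1267 had 0. Members thus carried less Mrc1 than the cells they were set against, at 1982 ± 132 CPM and 3402 ± 191.5 CPM.

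The following differences between members and MHC-II-low cells follow from cells sorted on their own reads and are described without a test. Outside the gate, 3148 genes had at least 50 CPM in every library of members or in every library of MHC-II-low cells. Of these, 30 were at least 2-fold higher in members in all 4 libraries (0.953%) and 12 were at least 2-fold lower (0.381%). Of the 42 genes that were 2-fold apart, 40 had a member mean between those of the MHC-II-low and the Mrc1-lower cells, beside 2294 of the 3148 genes in all (72.9%). The exceptions were Lsp1 and Ebf1. With cells removed that had been predicted to be doublets the counts were 28 and 11, with Mrc1 of at least 20 required they were 24 and 3, and with thinning to 8000 UMIs 13 and 7.

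**Figure D1:**
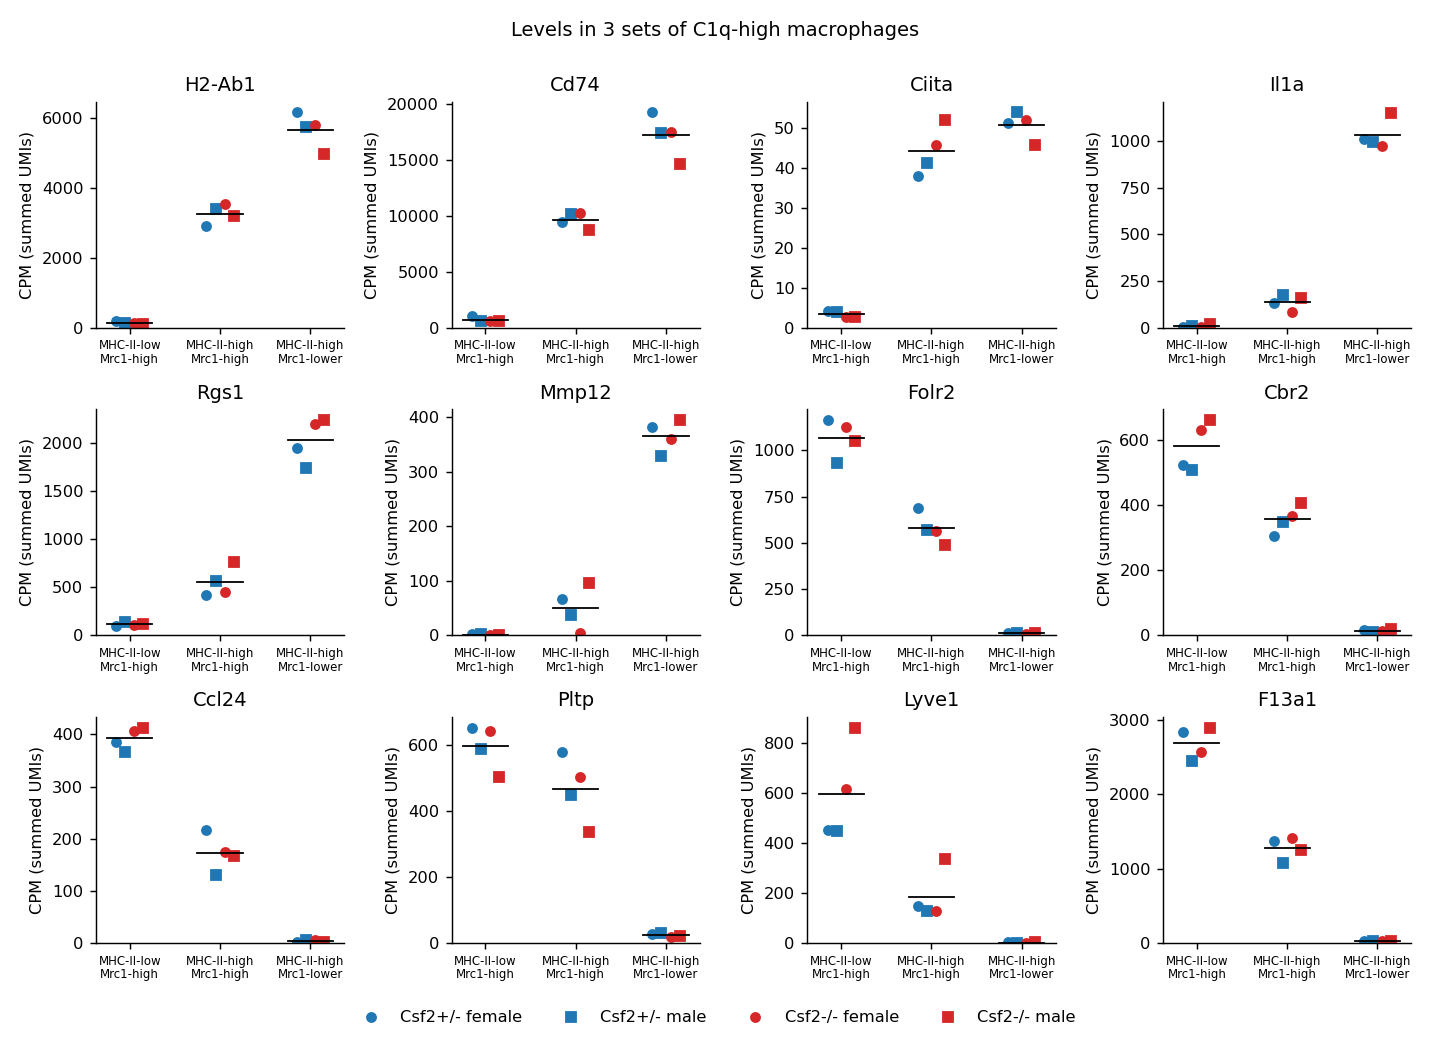
CPM of 12 genes in MHC-II-low Mrc1-high, MHC-II-high Mrc1-high and MHC-II-high Mrc1-lower macrophages, with 1 point per library (blue Csf2+/-, red Csf2-/-, circles female, squares male) and a bar at the mean of 4 libraries. The mean of members lies between those of the other sets in every panel; Folr2, for example, is at 1067, 577.5 and 12.1 CPM from left to right, and Il1a at 9.05, 135 and 1032 CPM.

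The MHC class II genes H2-Eb1 and H2-Ab1 had the highest ratios of the 30 genes. H2-Eb1, a class II beta chain, was at 3142, 3382, 3342 and 3205 CPM in members, and at 110 ± 34.3 CPM in MHC-II-low cells. Mrc1-lower cells had 5944 ± 623 CPM. H2-Ab1, the partner chain of H2-Aa, was at 2894, 3383, 3528 and 3188 CPM in members against 137 ± 38.1 CPM in MHC-II-low cells. For both genes the 4 libraries of members lay close together and outside the range of the MHC-II-low libraries.

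Cd74, the invariant chain that guards the class II groove, was at 9658 ± 696 CPM in members, 723.5 ± 202 CPM in MHC-II-low cells and 17206 ± 1911 CPM in Mrc1-lower cells. H2-DMb1 and H2-DMa, which load peptide, were at 267 ± 52.8 and 423 ± 58.7 CPM in members against 34.6 ± 4.43 and 115 ± 13.98 CPM. Ciita was at 38.1, 41.2, 45.7 and 52.1 CPM in members and 3.31 ± 0.775 CPM in MHC-II-low cells, while Mrc1-lower cells had 50.8 ± 3.498 CPM. Its level in members was thus nearer to that of the Mrc1-lower cells than the levels of the chains were.

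Of 9 class II list genes at that level and outside the gate, 5 were at least 2-fold higher and all 9 had a member mean between the other sets. Ctss, a protease that trims the invariant chain, was at 1350 ± 101 CPM against 794 ± 45.4 CPM. Ifi30, a lysosomal thiol reductase, was at 319 ± 42.5 against 262 ± 7.32 CPM. Lgmn, another endosomal protease, went the other way, at 767 ± 69.8 against 920.5 ± 74.4 CPM. The costimulatory gene Cd86 was at 1131, 1254, 866 and 1235 CPM in members and 1280 ± 195 CPM in MHC-II-low cells, with overlapping libraries.

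Interleukin-1 genes were also higher. Il1a was at 129, 175, 81.2 and 156 CPM in members, 9.05 ± 7.28 CPM in MHC-II-low cells and 1032 ± 81.1 CPM in Mrc1-lower cells. Only 5, 16, 8 and 23 members had an Il1a UMI. The member with the most held 51 of 95, 44 of 144, 23 of 71 and 30 of 189 UMIs. Il1b was at 305 ± 70.7 CPM in members, 77.6 ± 25.8 and 1104 ± 66.3 CPM in the others. Of 10 inflammatory cytokine genes at that level, these 2 were at least 2-fold higher and the median log2 difference was 0.87, against -0.10 for all 3148 genes. Tnf was at 247 ± 46.3 CPM in members and 207 ± 22.6 CPM in MHC-II-low cells.

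Other genes of the Mrc1-lower macrophages were present at a fraction of their level there. Rgs1, a brake on chemokine receptor signals, was at 419, 567.5, 451 and 765.5 CPM in members, against 115 ± 17.2 CPM in MHC-II-low and 2034 ± 237 CPM in Mrc1-lower cells. Fat3, an atypical cadherin, was at 68.5 ± 13.8, 8.74 ± 1.31 and 383 ± 37.5 CPM in that order. Cd72, a lectin-like inhibitory receptor, was at 140 ± 40.7, 37.2 ± 6.94 and 518.5 ± 18.1 CPM. Axl, a receptor for the uptake of dying cells, was at 171 ± 32.5, 57.3 ± 8.03 and 348 ± 30.2 CPM. Its relative Mertk had the opposite order, at 137 ± 17.5, 225 ± 39.4 and 24.7 ± 6.64 CPM. For Fat3, the member with the most held 29 of 49, 8 of 50, 14 of 51 and 16 of 107 UMIs of the 4 libraries.

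Cx3cr1, the fractalkine receptor, differed little, at 111 ± 8.83 CPM in members, 79.05 ± 6.08 CPM in MHC-II-low cells and 134 ± 5.37 CPM in Mrc1-lower cells. Of 9 genes of the Cx3cr1-type macrophage list at that level, 3 were at least 2-fold higher in members and the median log2 difference was 0.51. These 3 were Il1a, Il1b and Cd72, which were already given above.

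Genes of perivascular-type macrophages were retained at a lower level. Of 17 such list genes at that level, 5 were at least 2-fold lower in all 4 libraries, none was 2-fold higher, and all 17 lay between the other sets (median log2 difference -1.04). F13a1, a coagulation factor of resident macrophages, was at 1364, 1078, 1413 and 1250 CPM in members, 2686 ± 213 CPM in MHC-II-low cells and 26.3 ± 2.19 CPM in Mrc1-lower cells. Cd163, the haemoglobin scavenger receptor, was at 250 ± 52.6, 554 ± 41.8 and 4.998 ± 1.07 CPM. Lyve1, a hyaluronan receptor, was at 149.7, 128.5, 128 and 335 CPM in members and 594 ± 193 CPM in MHC-II-low cells. The Csf2-/- male library was the highest of both sets for Lyve1.

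Among genes at least 2-fold lower in all 4 libraries, Slc40a1, Colec12 and Fcna had the lowest ratios. Slc40a1, the iron exporter ferroportin, was at 76.2, 94.6, 68.6 and 104 CPM in members and 330 ± 35.2 CPM in MHC-II-low cells (median log2 difference -1.90). Colec12, a scavenger receptor with a collagen stalk, was at 62.5 ± 20.9 against 209 ± 28.1 CPM. Fcna, a ficolin that starts complement activation, was at 49.3 ± 10.4 against 148 ± 18.0 CPM. Gas6, the ligand of Axl and Mertk, was at 316, 320, 333 and 314 CPM against 668.5 ± 32.6 CPM, with little spread among the libraries.

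Not all genes were intermediate. Lyz2, encoding a lysozyme of macrophages, was at 7755, 7102, 7322 and 5896 CPM in members, above 5484 ± 275 CPM in MHC-II-low and 1812 ± 118.5 CPM in Mrc1-lower cells. Apoe, the lipid carrier, was at 23278 ± 3807, 22800 ± 4100 and 12992 ± 2880 CPM in that order, so members and MHC-II-low cells overlapped. Maf, a transcription factor of resident macrophages, was intermediate, at 989 ± 67.6, 1513 ± 79.0 and 127 ± 17.2 CPM.

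Chemokine genes were split. Ccl2 and Ccl7, which attract monocytes, were lower in members, at 1612 ± 251 and 893.5 ± 216.5 CPM against 2550 ± 333 and 1538 ± 400.0 CPM. Cxcl16 and Ccl4 were higher, at 188 ± 33.1 and 2830 ± 1065 CPM against 90.9 ± 5.87 and 1328 ± 196 CPM. Within the members Ccl4 was at 1832 and 1993 CPM in the female and 3637 and 3859 CPM in the male libraries. This difference was not tested, and sex cannot be told apart from the replicate.

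Several of these genes also shifted along both gate genes, though not all of them at every step. The 1676 Mrc1-high cells were put into bins of H2-Aa UMIs, from 0 to 60 or more. From the first to the last bin, F13a1 went from 2874 ± 206 to 966 ± 206 CPM, and Folr2 from 1135 ± 140.5 to 428 ± 71.9 CPM. Slc40a1 went from 380 ± 45.5 to 49.5 ± 11.5 CPM. Pltp was at 611 ± 85.7 CPM in the first bin, 539 ± 92.9 CPM at 30 to 59 and 360 ± 102 CPM in the last, so most of its difference lay at the top.

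Il1a did not follow H2-Aa below the limit. It was at 9.96 ± 9.58, 7.79 ± 6.48 and 6.57 ± 6.90 CPM in the bins of 0, 1 to 4 and 5 to 14 H2-Aa UMIs, and at 39.4 ± 49.3, 67.8 ± 80.7 and 225 ± 59.8 CPM in those of 15 to 29, 30 to 59 and 60 or more. H2-Ab1 was higher in each next bin, from 29.3 ± 1.83 to 4674 ± 486 CPM.

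Along Mrc1, members continued the range of the Mrc1-lower cells. At 0, 1 to 4 and 5 to 9 Mrc1 UMIs, F13a1 was at 2.47 ± 0.833, 22.6 ± 12.5 and 364 ± 198 CPM, and it was at 822 ± 247 and 1585 ± 106 CPM in members with 10 to 19 and 20 or more. Il1a went from 1115 ± 95.7 CPM at 0 to 440.0 ± 208 CPM at 5 to 9, and to 151 ± 120 and 124 ± 65.6 CPM in members. The 105 cells at 5 to 9 had less F13a1 than members just above the limit in all 4 libraries. They had more Il1a in 3 libraries and not in the Csf2+/- male library, at 241 against 246 CPM.

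**Figure D2:**
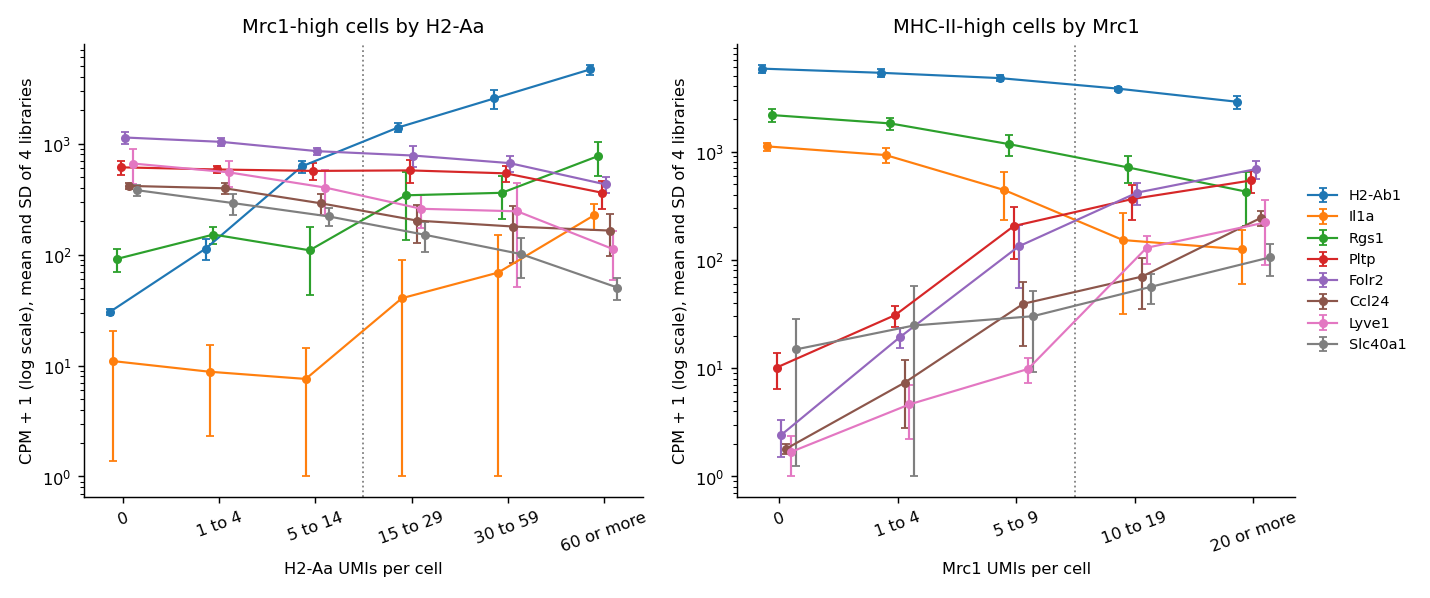
Mean CPM plus 1 (log axis) of 8 genes in bins of H2-Aa UMIs among Mrc1-high cells (left) and of Mrc1 UMIs among MHC-II-high cells (right), with the SD of 4 libraries, whose lower arm ends at 0 CPM. Members lie right of the dotted line; Slc40a1, for example, goes from 380 to 49.5 CPM along H2-Aa and Il1a from 1115 to 124 CPM along Mrc1.

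Single members differed in how much of each programme they held. Members had a median of 88.7 UMIs per 10000 of perivascular-type list genes (quartiles 53.6 and 132), between 174 in MHC-II-low and 7.97 in Mrc1-lower cells. For Cx3cr1-type list genes the medians were 22.8, 18.0 and 51.0. Of 281 members, 202 had UMIs of F13a1 and not of Il1a, 38 had both, 14 had Il1a alone and 27 neither.

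Thinned to 8000 UMIs, 19.4% of members had an Il1a UMI (exact 95% interval 14.6 to 25.03), against 3.60% of MHC-II-low, 84.9% of Mrc1-lower and 1.88% of T cells. The F13a1 shares were 82.7% (77.3 to 87.3), 98.3%, 3.93% and 3.86%. Unthinned, they were 18.5%, 4.09%, 81.0% and 2.87% for Il1a, and 85.4%, 98.8%, 5.89% and 5.003% for F13a1. The share with F13a1 in Mrc1-lower cells was near that in T cells, while its level there was higher, at 26.3 ± 2.19 against 8.81 ± 3.92 CPM.

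**Figure D3:**
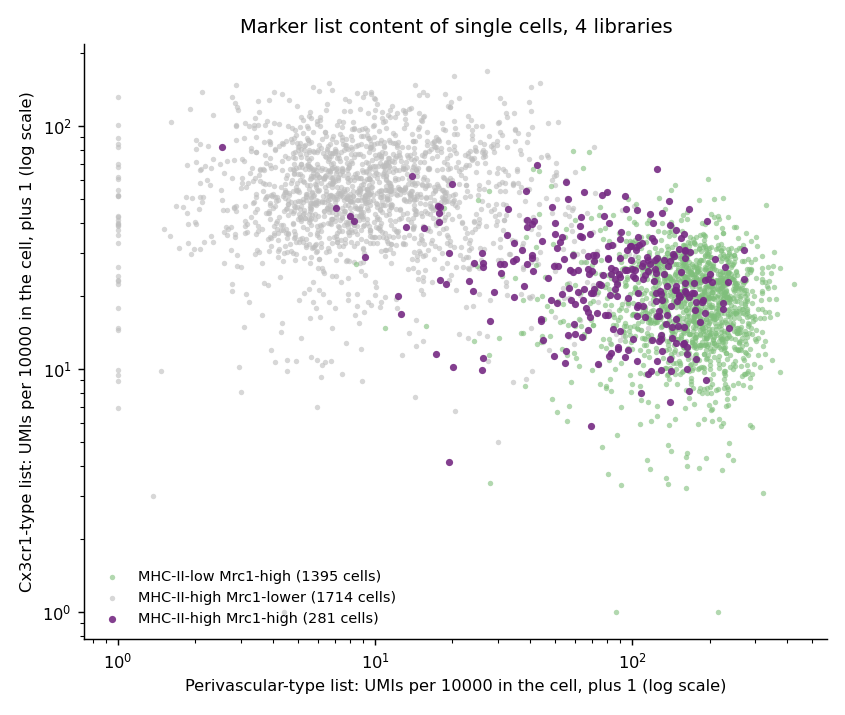
Each point is a cell, with UMIs per 10000 of the perivascular-type list (x) and of the Cx3cr1-type list (y), both plus 1 on log axes, for 281 members (purple), 1395 MHC-II-low (green) and 1714 Mrc1-lower cells (grey). Members spread from the MHC-II-low group towards the Mrc1-lower group, with medians of 88.7 and 22.8.

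Reads of other cell types were present and moved with some of these differences. Doublets were predicted in 22 members (7.83%), against 2.51% of MHC-II-low and 3.91% of Mrc1-lower cells. Over all barcodes the rule marked 8.30%, 7.64%, 8.27% and 8.29% of the 4 libraries, so members were near the share of the series. The part of doublets in the intermediate levels was not tested beyond the counts without them. The summed level of 8 B cell list genes was 433 to 614 CPM in members and 256 to 572 CPM in MHC-II-low cells, and the 5 members with the most held 32.4% of these UMIs. Cd79a, a defining B cell gene, was at 44.1 ± 11.1 against 9.99 ± 10.8 CPM. Igkc and Ebf1, a B cell factor, had median log2 differences of 2.59 and 3.34, which became -0.80 and -0.60 without cells that held a UMI of defining B cell genes, Cd79a among them.

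Ccr7, a gene of the migratory dendritic cell list, was at 102, 58.2, 14.9 and 34.8 CPM in members. In the Csf2+/- female library 71 of its 75 UMIs came from 1 cell. Without cells that held a UMI of Flt3, Ccr7, Xcr1 or Cd209a, 27 genes were 2-fold higher and 12 lower. The differences of Ebf1 and Igkc also reversed in this setting, so it was not specific to dendritic cell reads. The 12 ILC2 list genes summed to 67.4 to 180 CPM in members and 91.3 to 158 CPM in MHC-II-low cells, and Il13, Il17rb and Csf2 of this list were at 0 in all 4 libraries of members. The 7 eosinophil list genes summed to 3.31 to 27.2 CPM, with Prg2, Epx and Ear1 at 0.

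Members were 0.606% (exact 95% interval 0.461 to 0.783), 0.709% (0.544 to 0.907), 0.810% (0.642 to 1.01) and 0.856% (0.682 to 1.06) of kept barcodes. Both Csf2-/- libraries were above both Csf2+/- libraries. The means were 0.657 ± 0.0724% in Csf2+/- and 0.833 ± 0.0327% in Csf2-/- (SD, n = 2 each), a difference of 0.176 percentage points. The exact two-sided permutation test gave p = 0.333, the smallest it can give with 2 against 2 libraries. With Mrc1 of at least 20 required, the difference was 0.0938 points, and without cells holding a B cell UMI 0.108 points; the genotypes overlapped in both.

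Among Mrc1-high macrophages, members made up 18.8% (14.6 to 23.6), 16.1% (12.6 to 20.2), 18.5% (14.9 to 22.5) and 14.7% (11.9 to 18.0). The genotypes overlapped, at 17.5 ± 1.86% in Csf2+/- and 16.6 ± 2.65% in Csf2-/- (exact two-sided permutation p = 0.667, n = 2 each). The difference of -0.833 points became 0.479 when the female Csf2+/- library was left out and 1.04 when the male Csf2-/- library was. No difference in this share was detectable at this depth and number of libraries.

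**Figure D4:**
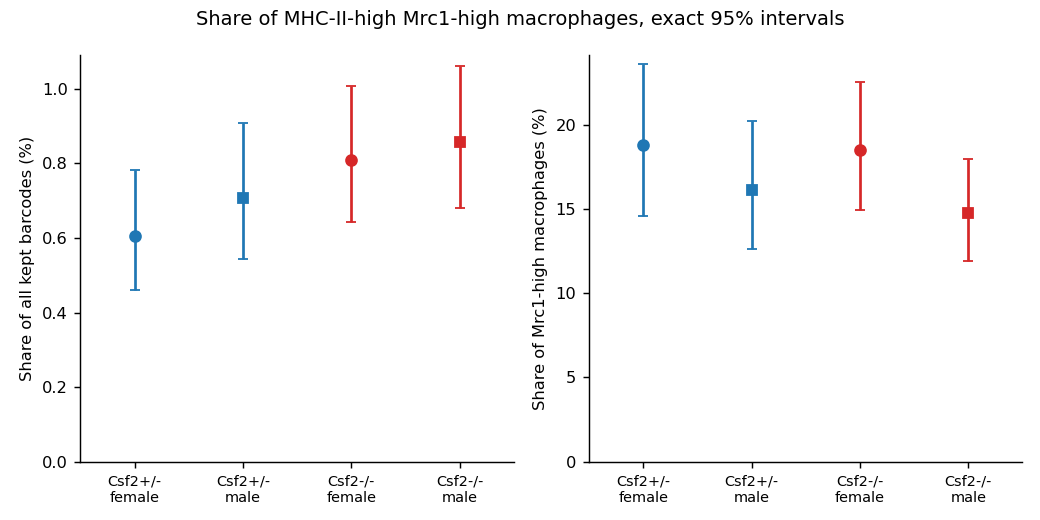
Share of members among all kept barcodes (left) and among Mrc1-high macrophages (right) in each library, with exact binomial 95% intervals, which cover counting error only. On the left both Csf2-/- libraries (red, 0.810% and 0.856%) lie above both Csf2+/- libraries (blue); on the right the genotypes overlap.

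No gene passed the test between Csf2-/- and Csf2+/- members. Of 7606 genes tested by edgeR's quasi-likelihood test, 0 passed an adjusted p of 0.05 in either direction (0% called). At an unadjusted p under 0.05, 222 were higher (2.92%) and 291 lower (3.83%) in Csf2-/-. DESeq2 called 2, both lower. The edgeR count was 6 without predicted doublets and 16 with sex as a term, so it was sensitive to these settings. The fit with sex left fewer residual degrees of freedom than the 2 of the main fit, here and for single genes below.

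The GM-CSF receptor and its signal carriers were among the genes without a call. Csf2ra, the alpha chain that binds GM-CSF, was at 102, 135, 123 and 116 CPM (log2 difference Csf2-/- minus Csf2+/- 0.00, SE 0.18). Csf2rb, the beta chain that signals, was at 58.5, 54.6, 53.7 and 58.8 CPM (-0.01, SE 0.23). Libraries of the genotypes overlapped for both chains. The differences of Jak2, Stat5a and Stat5b, which act after the receptor, were -0.04, 0.22 and 0.16. All 8 tested genes of this pathway list had adjusted p above the threshold, 3 with higher and 5 with lower values and a median of -0.03. Csf2ra was higher in members than in MHC-II-low cells (82.8 ± 9.85 CPM) and lower than in Mrc1-lower cells (246 ± 18.1 CPM).

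Of 21 tested genes of a list of STAT5-induced genes, 0 were called, 13 had lower values and 2 of these an unadjusted p under 0.05, beside 3.83% of all genes, and the median was -0.15. Pparg, a lipid-sensing receptor that GM-CSF induces in lung macrophages, was at 72.2, 84.9, 27.4 and 43.0 CPM, with both Csf2-/- libraries lower (log2 -1.14, SE 0.26, edgeR adjusted p = 0.530). Of its UMIs in the Csf2+/- libraries, 23 of 53 and 20 of 70 came from 1 cell each. Pim1, a kinase gene of the same list, was at 547, 343, 334 and 386 CPM, where the genotypes overlapped.

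The genes of lowest p are given by name although none passed. Dcstamp, required for the fusion of macrophages into giant cells, was at 39.5, 50.9, 8.0 and 4.14 CPM, lower in both Csf2-/- libraries (log2 -2.95, SE 0.39, edgeR adjusted p = 0.105). It passed by DESeq2 (adjusted p = 0.0443), without predicted doublets (edgeR adjusted p = 0.00806) and with sex as a term (0.00348). It did not pass with an H2-Aa limit of 30 (edgeR adjusted p = 0.0604). With thinning, Dcstamp had no test result. It also had none without cells that held a UMI of Flt3, Ccr7, Xcr1 or Cd209a, so the call could not be checked there. The reads came from few cells. Dcstamp UMIs were found in 2, 5, 2 and 4 members, and 23 of 29 and 30 of 42 UMIs of the Csf2+/- libraries were from 1 cell each. Mrc1-lower cells had 189 ± 50.4 CPM of Dcstamp and MHC-II-low cells 0.600 ± 0.602 CPM.

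Retnla, a secreted protein of alternative activation, was at 188, 276.5, 80.0 and 107 CPM (log2 -1.31, SE 0.21, edgeR adjusted p = 0.184, DESeq2 adjusted p = 0.0443). In the Csf2+/- male library 201 of 228 Retnla UMIs lay in 1 cell, and the log2 difference was 0.07 without cells holding a B cell UMI. With sex as a replicate block Retnla passed (edgeR adjusted p = 0.00119). In MHC-II-low cells its log2 difference was 0.72, and 479 of 1832 UMIs of the Csf2-/- female library came from 1 cell. The share of MHC-II-low cells with a Retnla UMI was 23.1%, 24.5%, 11.2% and 12.025%, lower in both Csf2-/- libraries. In T cells the share was 11.8%, 14.3%, 1.25% and 2.02%, so the background of Retnla was lower in Csf2-/- too, and its part in the result was not tested.

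Kitl, which encodes stem cell factor, was spread over more cells. It was at 121, 159, 70.9 and 48.8 CPM. A UMI was carried by 32, 31, 29 and 30 members (55.2%, 50%, 36.7% and 36.6%). The cell with the most Kitl held 12 of 89, 32 of 131, 14 of 62 and 4 of 59 UMIs. The genotypes did not overlap (log2 -1.26, SE 0.23, edgeR adjusted p = 0.269), as for 19.9% of tested genes in the higher and 17.4% in the lower direction. With sex as a replicate block Kitl passed (edgeR adjusted p = 0.0277). In MHC-II-low cells Kitl was at 127 ± 14.3 CPM with a log2 difference of -0.21. Emp1, a membrane protein of the tetraspan kind, was at 66.7, 86.1, 30.9 and 30.6 CPM (log2 -1.32, SE 0.25, edgeR adjusted p = 0.304).

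The higher genes of lowest p were Tox, Skap1, Klrd1, Iars2 and Grpel1. Skap1, a T cell adaptor, was at 6.81, 8.49, 36.6 and 28.96 CPM. Tox, a factor of lymphocyte development, was at 4.08, 8.49, 57.2 and 31.5 CPM (log2 2.73, SE 0.48, edgeR adjusted p = 0.269). In the Csf2-/- libraries Tox UMIs came from 6 and 4 members, with 23 of 50 and 19 of 38 in 1 cell each. Klrd1, an NK cell receptor chain, was at 10.9, 9.70, 59.4 and 29.8 CPM (edgeR adjusted p = 0.484). Its UMIs there came from 10 and 5 members, with 16 of 52 and 16 of 36 in 1 cell each. For Skap1, 12 of 32 and 18 of 35 UMIs lay in 1 cell each. With sex as a replicate block Tox and Klrd1 passed (edgeR adjusted p = 0.0184 and 0.0307). Summed levels of NK list genes moved with them, at 51.7, 30.3, 167 and 76.96 CPM, and of T cell list genes outside the gate at 28.6, 41.2, 82.3 and 72.8 CPM. Their part in these differences was not tested. Iars2 and Grpel1, both of mitochondria, were at 12.3, 10.9, 34.3 and 29.8 CPM and at 39.5, 35.2, 72.0 and 72.0 CPM (edgeR adjusted p = 0.698 and 0.723).

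The genes that describe the members did not differ by genotype beyond the test. H2-Ab1, Cd74, Folr2, Cbr2, Ccl24 and Pltp had log2 differences of 0.09, -0.05, -0.27, 0.23, -0.03 and -0.30, with edgeR adjusted p from 0.770 to 0.986. Il1a had -0.35 and Lyve1 0.74. Of 20 tested perivascular-type genes, 8 had higher and 12 lower values (median -0.06), and of 12 class II genes 7 and 5 (median 0.09), beside a median of 0.00 for all genes tested. One higher class II gene, H2-DMb1, had an unadjusted p under 0.05 (log2 0.38, edgeR adjusted p = 0.738).

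Among 17 tested chemokine genes, 11 had higher values in Csf2-/- and 3 an unadjusted p under 0.05, beside 2.92% of all genes. These 3, picked out after their values were seen, were Pf4, Ccl7 and Ccl12. Pf4, platelet factor 4, was at 2837, 2656, 3356 and 3567 CPM (log2 0.32, SE 0.09, edgeR adjusted p = 0.723). Ccl7 was at 615, 868, 954 and 1136 CPM (log2 0.49, SE 0.15, edgeR adjusted p = 0.723). The differences in MHC-II-low cells were 0.32 and 0.54.

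**Figure D5:**
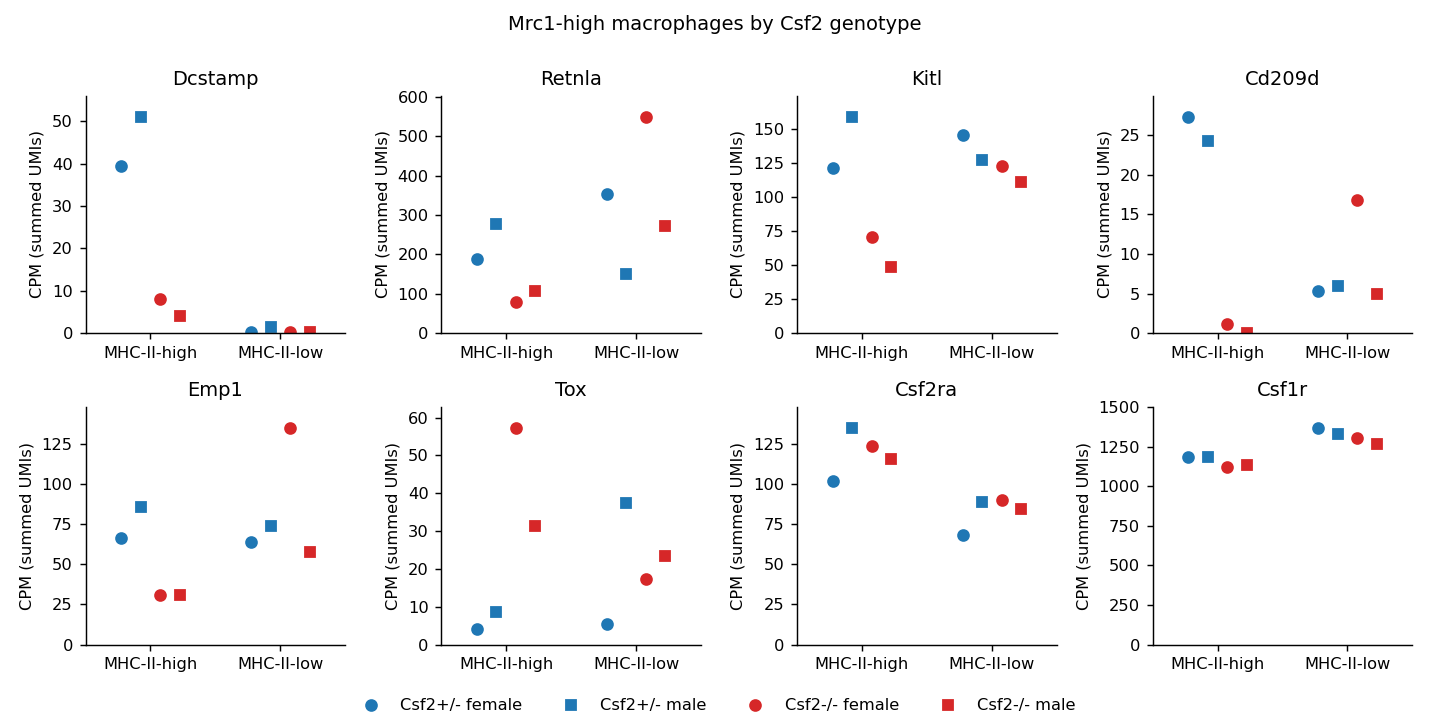
CPM of 8 genes in MHC-II-high and MHC-II-low Mrc1-high macrophages, with 1 point per library (blue Csf2+/-, red Csf2-/-, circles female, squares male). Dcstamp, Retnla, Kitl, Cd209d and Emp1 are lower and Tox is higher in both Csf2-/- libraries of members, without passing the test; Csf2ra overlaps, and Csf1r is at 1188 and 1184 against 1120 and 1134 CPM.

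The same test in MHC-II-low cells covered 10384 genes and called 19 higher (0.183%; 7.97% at an unadjusted p under 0.05) and 38 lower (0.366%; 7.03%). These sums held more cells, so the counts cannot be set against each other. A test of the difference between the genotype differences of the sets covered 9780 genes and called 0 higher (0%; 2.14% at an unadjusted p under 0.05) and 1 lower (0.0102%; 2.12% at an unadjusted p under 0.05). This was Cd209d, a lectin of the DC-SIGN family (log2 -6.42, edgeR adjusted p = 0.0238). DESeq2 called 0. Cd209d was at 27.2, 24.3, 1.14 and 0 CPM in members, which stood for 20, 20, 1 and 0 UMIs, and the 20 of the Csf2+/- female library came from 1 cell. Tested in members alone it did not pass (edgeR adjusted p = 0.112), and passed with sex as a replicate block (0.0109). In MHC-II-low cells it was at 8.26 ± 5.69 CPM.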

How the data were processed

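Deposited matrices of 4 single-cell libraries held raw UMI counts, whole numbers for each gene in each barcode. The authors used Cell Ranger 7.0.0 and GRCm39, per the submitters' processing notes. Library totals ran from 111981802 to 122366588 UMIs. Barcode sequences shared by a pair of libraries numbered 20 to 36, and 159 occurred in more than 1 library. Members, sets and gene lists were chosen with earlier results of these data known.

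Counts of gated cells were summed per library, giving 734622 to 1208374 UMIs in members. Genotype was tested with edgeR 4.0.16 (R 4.3.3; quasi-likelihood, robust, TMM, default low-count filter, Benjamini-Hochberg at 0.05), with 2 residual degrees of freedom. The alternative fit with sex as a replicate block left fewer than 2. The difference between sets was an interaction term with library as block. The 11 gate genes were not tested. Log2 differences of cell sets used CPM plus 1. DESeq2 1.42.0 was an alternative. Doublets were the expected share (0.008 per 1000 barcodes) with the highest Scrublet scores (scanpy 1.11.5), kept in the main results, since the automatic threshold marked nearly none in 3 libraries. T cells had at least 3 Cd3 UMIs, fewer than 20 of C1q and 0 of Cd79a and Ms4a1. Permutation tests and intervals used scipy 1.17.1. The tests were tested on simulated counts. Of simulated 2-fold changes the genotype test in members called 39 of 96 (40.6%), and of 4-fold changes 91 of 94. In MHC-II-low cells it called 67 of 96 and 95 of 99, and the test between sets 30 of 99 and 76 of 97. A missing call thus does not show that a gene was unchanged. Libraries are pools of 2 mice, with 1 female and 1 male pool per genotype. In the main fits p-values thus measure the spread between pools, in which sex cannot be told apart from the replicate.

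Genes were named by a rule. For genotype it took up to 12 called genes in each direction and, where fewer than 5 were called, the 5 of lowest p with at least 10 CPM and no overlap. Between sets it took the 12 highest and 12 lowest ratios, with the most abundant list members, markers and receptor genes. Of the 179 genes it named the text gives a part. Outside it, and chosen after their values were seen, are Axl, Ccl12, Ccl7, Cd163, Cd72, Chil3, Ciita, Csf2, Ctss, Cx3cr1, Cxcl16, Ear1, Epx, Flt3, H2-DMa, Ifi30, Il13, Il17rb, Lgmn, Lsp1, Ly6c2, Mertk, Pparg, Prg2, Tnf and Vcan. Settings that leave out cells with B cell or dendritic UMIs were added after the data were seen.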

Additional observations from a re-analysis of the deposited data

Results flagged for a closer look

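The genotype difference of Cd209d differed between the Mrc1-high sets by a log2 value of -6.42 (edgeR interaction test, adjusted p = 0.0238). Among members it was lower in both Csf2-/- libraries, and in MHC-II-low cells it was at 5.29, 5.98, 16.8 and 4.99 CPM. The members' reads came from 1, 3, 1 and 0 cells.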

How the results depend on the processing

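For genotype in members, where 0 genes were called, the count was 6 without predicted doublets, 1 with Mrc1 of at least 20, 2 without cells holding a B cell UMI, 2 by DESeq2 and 41 with no low-count filter. It ran from 1 to 9 with a library left out, where the lone library of a genotype is assumed to vary like the others. In MHC-II-low cells the 57 calls became 158 without predicted doublets, 3 with thinning to 8000 UMIs, 31 with an H2-Aa limit of 30, 21 without B cell UMIs and 416 with no filter, and were 301, 359, 71 and 23 when the libraries were left out in turn, in the order used above (23 to 359). The difference between sets, with 1 call, gave 2 without doublets, 0 with an H2-Aa limit of 30, 0 without dendritic UMIs, 0 by DESeq2, 24 with no filter and 13 to 40 with a library left out. The cause of these changes was not tested.

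The labels pair libraries of the genotypes only by sex. With sex as a replicate block, 16 genes were called in members (2 higher, 14 lower) and 127 in MHC-II-low cells. This fit left fewer residual degrees of freedom than the main fit.

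The difference in share among all barcodes was 0.257 points with thinning and 0.0938 with Mrc1 of at least 20, and 0.125 to 0.227 with a library left out. That among Mrc1-high cells ran from -2.71 to 1.04. The 42 genes that differed 2-fold between sets became 20 with thinning, 27 with Mrc1 of at least 20 and 43 to 53 with a library left out. Ebf1 and Igkc reversed to -0.60 and -0.80 without B cell UMIs and to -0.70 and -1.11 without dendritic UMIs. With 58 to 82 members per library, few UMIs stand behind genes below 50 CPM.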

Other observations

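Single cells supplied most reads of some genes in members. S100a8, a neutrophil gene, was at 648, 0, 153 and 0 CPM, with 476 of 476 UMIs of the Csf2+/- female library in 1 cell and 131 of 134 of the Csf2-/- female library in 1. Smgc, a salivary mucin-like secretory gene, was at 2158, 346, 322 and 175 CPM, and 1372 of 1585 UMIs of the Csf2+/- female library lay in 1 cell. In T cells Smgc was at 295 CPM. Ccl8, a monocyte-attracting chemokine, was at 2.72, 133, 36.6 and 44.7 CPM, and 1, 13, 9 and 10 members had a UMI.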
